A study of Mus musculus with 30 samples.

Results

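The genes that fold, modify and quality-control newly made collagen were followed in the descending thoracic aorta of mice with a missense collagen III and of their controls. The 10 genes, taken by symbol from the 26253 genes in the tables, were *Serpinh1*, *P4hb*, *P4ha1*, *P4ha2*, *Plod1*, *Plod2*, *Hspa5*, *Hsp90b1*, *Ddit3* and *Atf4*, and each passed the low-count filter in every one of the 11 comparisons. The mice were males on a C57BL/6J background. VEDS mice (labelled Het) were heterozygous for a glycine substitution in the triple helix of *Col3a1* and model vascular Ehlers-Danlos syndrome, and control mice (labelled WT) were *Col3a1*+/+. Of 30 bulk RNA-seq libraries from separate aortas, 3 were from VEDS mice on hydralazine and spironolactone (HS), 3 from VEDS mice on hydralazine and bicalutamide (HB), 6 from VEDS mice on hydralazine, 6 from untreated VEDS mice, 6 from control mice on hydralazine and 6 from untreated control mice. Hydralazine, a vasodilator, was given at 32 mg/kg/day in water from birth. Spironolactone, which blocks the mineralocorticoid and androgen receptors, was given at 100 mg/kg/day and bicalutamide, which blocks the androgen receptor, at 50 mg/kg/day, both in chow from day 21. HS and HB aortas were harvested at day 60 and the other groups at day 30 or day 60, with 3 mice per group at each age. The age and the extraction batch of a given library are not labelled, so a difference of HS or HB from the other groups cannot be told apart from a difference in age. By the labels the adventitia, the layer with most of the vessel's fibroblasts, was pulled off, whereas the study's methods mention removal of perivascular fat.

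Collagen chains enter the endoplasmic reticulum (ER) as single strands and are modified before they wind into a triple helix. Prolyl 4-hydroxylase makes the hydroxyproline that keeps the helix stable at body temperature, lysyl hydroxylases prepare lysines for cross-links and sugar attachment, and the chaperone HSP47 holds the finished helix until it reaches the Golgi. A glycine at every repeat of the helix is needed for close packing, and a larger residue in its place slows folding. When misfolded proteins build up in the ER, the unfolded protein response can raise chaperones through ATF6 and IRE1 and, through PERK and the translation factor eIF2, the transcription factors ATF4 and CHOP. The data address whether a missense collagen III is accompanied by such a response in the aorta.

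Library totals ran from 5517509 to 8293287 counts. Smooth muscle markers were high throughout, and *Myh11*, which encodes their contractile myosin, lay at 5212 to 10632 CPM (counts as a share of the TMM-scaled library total). Transcripts of liver and fat were present in every group, and their summed levels varied widely (hepatocyte markers from 92.3 to 15058 CPM, 6 genes, and adipocyte markers from 177 to 1724 CPM, 6 genes). Fibroblast markers summed to between 2059 and 2884 CPM (7 genes). Of the libraries that stood apart, HS replicate 3 held 709 CPM of the heat-inducible chaperone *Hspa1b*, and HB replicate 2 and control hydralazine replicate 5 held 403 and 427 CPM of the cardiac myosin *Myh6*. In whole-tissue RNA, fewer cells of a type and less RNA per cell cannot be told apart.

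The levels per transcript length, as TPM (a gene's share of all transcripts after division by transcript length), gave the order of the 10 genes over the 30 libraries. *Serpinh1*, which encodes HSP47, was the highest at 337 ± 86.4 TPM (mean ± SD, n = 30). Its mean was above that of *Col1a1* (254 ± 175 TPM) but below those of *Col1a2* (570 ± 282 TPM) and *Col3a1* (1160 ± 663 TPM), the chains it folds. The ranges of *Serpinh1* (167 to 483 TPM) and *Col1a1* (76.4 to 651 TPM) overlapped. *Hspa5*, encoding the ER chaperone BiP, followed at 157 ± 35.5 TPM. *P4hb*, whose product is both protein disulfide isomerase and the beta subunit of prolyl 4-hydroxylase, stood at 153 ± 31.4 TPM, and *Hspa5* was above it in 13 of 30 libraries, so the order of these neighbours was not separated. *Hsp90b1*, encoding the ER HSP90 called GRP94, stood at 117 ± 18.3 TPM, and *Atf4* at 63.8 ± 9.41 TPM. The remaining genes were lower, with *Plod2* at 26.6 ± 3.63, *P4ha1* at 19.3 ± 3.17, *P4ha2* at 14.2 ± 3.57, *Plod1* at 12.3 ± 2.67 and *Ddit3* at 10.7 ± 2.13 TPM. *Plod1* exceeded *Ddit3* in 17 of 30 libraries, another pair within the spread, while every other pair of neighbours kept its order in 28 or more of the 30 libraries.

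**Figure D1:**
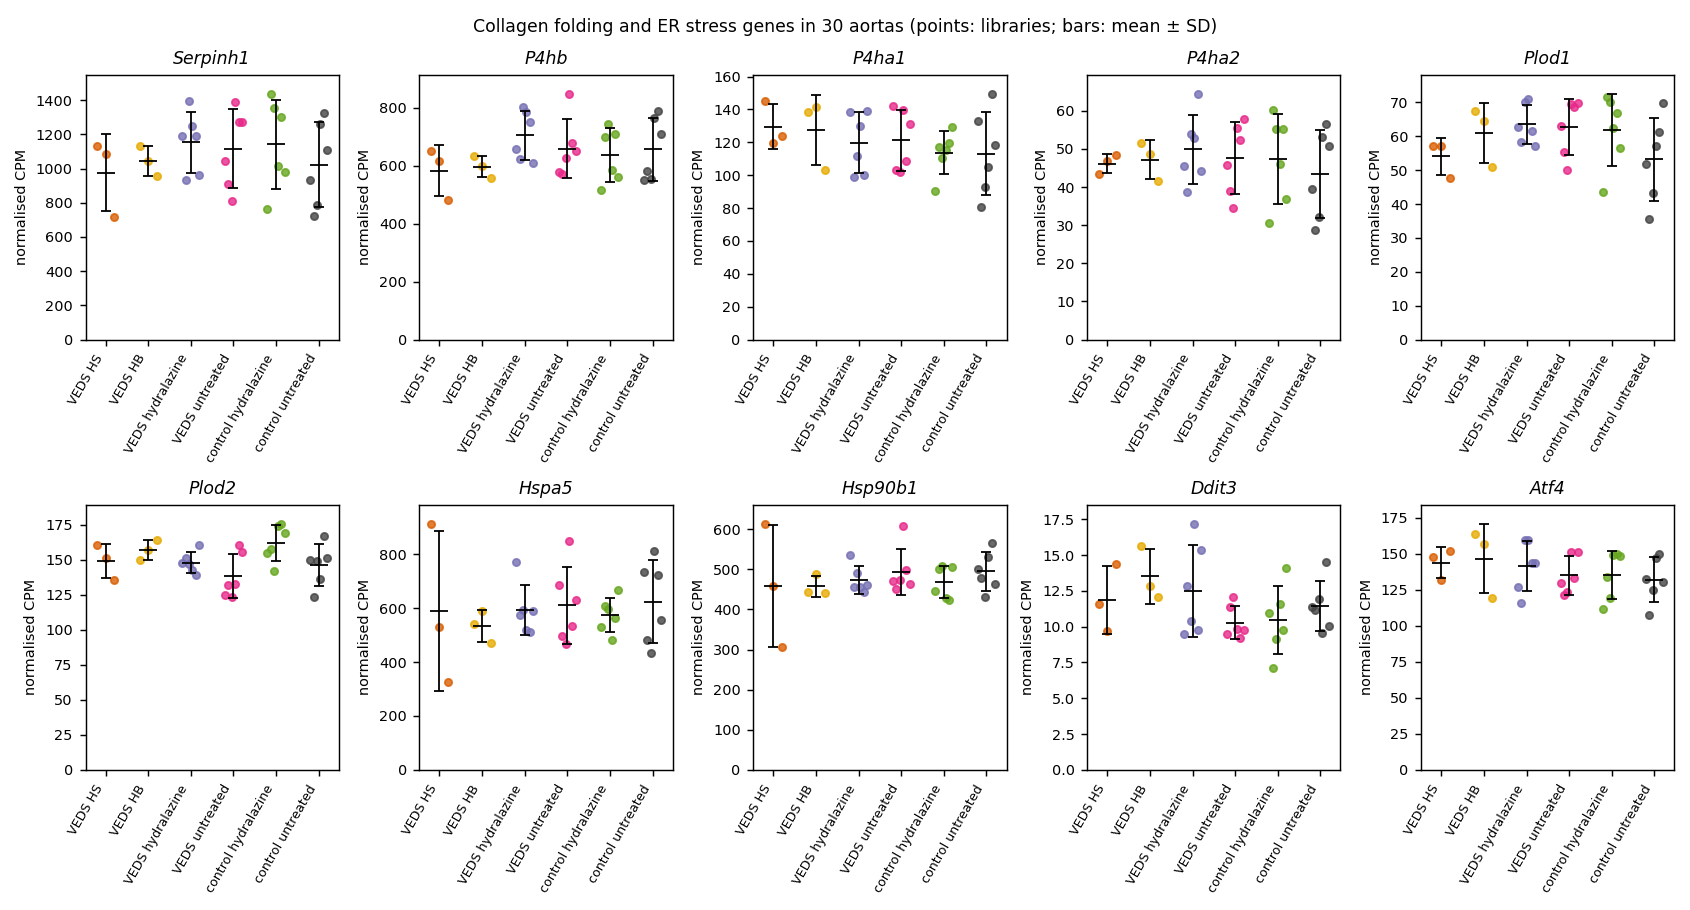
Normalised CPM (vertical axis, from 0) of the 10 genes in each library (points) of the 6 groups (horizontal axis), with the mean and SD as bars. VEDS and control libraries overlap for every gene, and HS replicates 1 and 3 mark the top (911 CPM) and the bottom (326 CPM) of *Hspa5*.

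The first comparison asked whether the collagen III mutation alters these genes in untreated aortas. No gene of the group passed the test. In 6 VEDS against 6 control libraries, edgeR called 0 of 10 genes at an adjusted p of 0.05 or less (background 0.0% of 12976 genes), DESeq2 called 0 as well, and an unadjusted p under 0.05 was reached by 0 genes. The log2 fold changes were positive for 6 genes and negative for 4, and their median was 0.016 beside 0.0034 over all genes. Under hydralazine, with 6 VEDS against 6 control libraries, edgeR and DESeq2 again called 0 of the 10 (background 0.0% of 12966 genes), and 1 gene, *Plod2*, had an unadjusted p under 0.05. Here 9 genes had positive values and 1 a negative value, and the median was 0.055 beside -0.0056 over all genes. Both treatments together (12 VEDS and 12 control libraries) gave 0 calls by either tool (background 0.0% of 13407 genes), a median of 0.061 beside 0.0024 over all genes, and *Plod2* as the 1 gene at an unadjusted p under 0.05. Over all genes, 4.64% on hydralazine and 3.7% for both together had an unadjusted p under 0.05. For none of the 10 genes did the VEDS and control libraries separate without overlap, either untreated or on hydralazine. The background of such separation was 0.146% of genes untreated and 0.201% on hydralazine.

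*Serpinh1*, the collagen-specific chaperone, ran from 810 to 1390 CPM in untreated VEDS aortas (median 1159) and from 723 to 1328 CPM in untreated controls (median 1021). On hydralazine it ran from 931 to 1393 CPM in VEDS (median 1192) and from 762 to 1435 CPM in controls (median 1159). The genotypes overlapped over most of their ranges in both settings, and the lowest library was a control in each. The log2 fold change was 0.12 ± 0.18 (SE) untreated, 0.014 ± 0.15 on hydralazine and 0.07 ± 0.12 for both together, with a 95% interval of -0.18 to 0.32 (edgeR, adjusted p = 1.00, n = 12 per genotype).

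The prolyl 4-hydroxylase genes were likewise close between genotypes. *P4hb* stood at 659 ± 101 CPM in untreated VEDS and 658 ± 109 CPM in untreated control aortas, and at 705 ± 85.2 CPM in VEDS and 637 ± 93.3 CPM in control aortas on hydralazine (SD, n = 6 each). *P4ha1*, the more widely expressed catalytic alpha subunit, averaged 121 ± 18.8 CPM in untreated VEDS and 113 ± 25.5 CPM in untreated controls. *P4ha2*, a second alpha subunit that is prominent in cartilage and bone, averaged 47.5 ± 9.46 CPM in untreated VEDS and 43.5 ± 11.6 CPM in untreated controls. These differences were smaller than the SD of either group. For both treatments together the log2 fold changes were 0.072 ± 0.083 for *P4hb* (95% interval -0.10 to 0.24), 0.086 ± 0.093 for *P4ha1* (-0.11 to 0.28) and 0.10 ± 0.13 for *P4ha2* (-0.16 to 0.36). The ratio of *P4ha1* to *P4ha2*, the balance of the catalytic subunits, had a median of 1.40 in untreated VEDS and 1.47 in untreated control aortas, and a mean log2 difference of -0.034 (exact permutation test, two-sided, p = 0.807, adjusted over 6 ratio tests 0.900).

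The lysyl hydroxylases had the smallest p-values of the group, *Plod1* untreated and *Plod2* on hydralazine, although neither passed the test. *Plod1*, which mainly hydroxylates lysines of the helix, ranged from 50.0 to 69.8 CPM in untreated VEDS (median 65.9) and from 35.7 to 69.7 CPM in untreated control aortas (median 54.5). The lowest 2 control libraries lay below every VEDS library, and the highest libraries of the genotypes were alike. Its log2 fold change was 0.24 ± 0.15 untreated (95% interval -0.083 to 0.56, adjusted p = 1.00) and 0.036 ± 0.11 on hydralazine. *Plod2*, which hydroxylates the telopeptide lysines that form stiff cross-links, ranged from 139 to 161 CPM in VEDS (median 147) and from 142 to 175 CPM in control aortas (median 163) on hydralazine. Its log2 fold change was -0.13 ± 0.060 on hydralazine (unadjusted p = 0.0468, adjusted p = 0.923), -0.082 ± 0.087 untreated and -0.11 ± 0.052 for both together (edgeR, unadjusted p = 0.0498, adjusted p = 1.00).

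The balance of the lysyl hydroxylases was compared as a ratio within each library, which rests on the same values as their opposite signs above. The ratio of *Plod2* to *Plod1* in TPM ran from 1.66 to 2.15 in untreated VEDS (median 1.98) and from 1.88 to 3.01 in untreated control aortas (median 2.44). It ran from 1.74 to 2.45 in VEDS (median 2.00) and from 1.75 to 3.10 in control aortas (median 2.35) on hydralazine. The genotypes overlapped in both settings, and the highest values belonged to control aortas. The mean log2 difference was -0.34 untreated (exact permutation test, two-sided, n = 6 each, p = 0.0260, adjusted over 6 ratio tests 0.156) and -0.18 on hydralazine (p = 0.242, adjusted 0.727). It passed the threshold when control untreated replicate 6 was left out (-0.42), so that library decided the call.

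**Figure D2:**
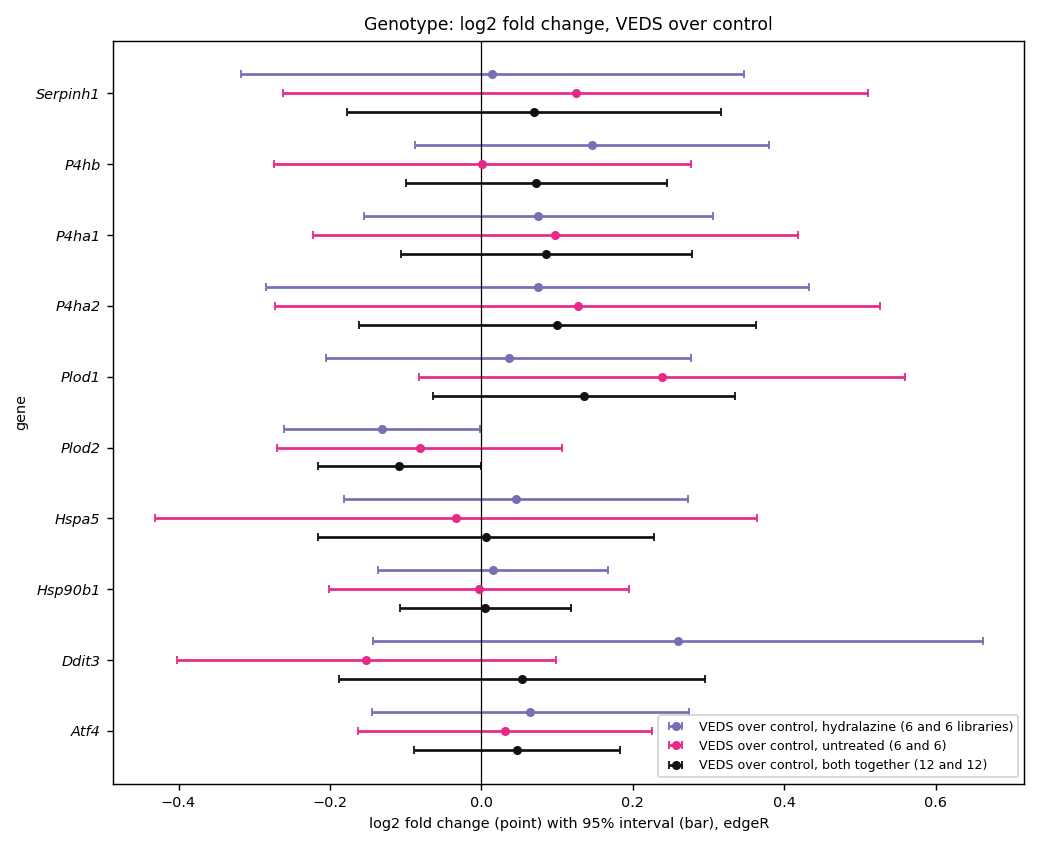
The log2 fold change of VEDS over control (horizontal axis) for each of the 10 genes (vertical axis), with points for the edgeR estimate and bars for its 95% interval, on hydralazine, untreated and for both together. The intervals include 0 except for *Plod2* on hydralazine (-0.13 ± 0.060) and for both together (-0.11 ± 0.052), whose adjusted p-values were 0.923 and 1.00.

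The ER chaperones did not differ between genotypes beyond the spread of the libraries. *Hspa5* ranged from 466 to 848 CPM in untreated VEDS (median 583) and from 434 to 814 CPM in untreated control aortas (median 639). On hydralazine it ranged from 513 to 772 CPM in VEDS (median 581) and from 481 to 667 CPM in controls (median 581). Untreated libraries of both genotypes spread over nearly the same range, and the log2 fold change was -0.034 ± 0.18 untreated, 0.046 ± 0.11 on hydralazine and 0.0055 ± 0.11 for both together (95% interval -0.22 to 0.23). *Hsp90b1* was estimated more tightly. Its median was 472 CPM in untreated VEDS and 490 CPM in untreated control aortas, and 458 CPM in VEDS and 473 CPM in control aortas on hydralazine. Its log2 fold change for both together was 0.0049 ± 0.055, with a 95% interval of -0.11 to 0.12.

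The transcription factors of the PERK arm also overlapped. *Atf4*, which is controlled mainly by translation and drives amino acid supply genes, averaged 135 ± 13.3 CPM in untreated VEDS and 132 ± 15.5 CPM in untreated control aortas (log2 fold change for both treatments together 0.047 ± 0.066, 95% interval -0.089 to 0.18). *Ddit3*, which encodes the pro-apoptotic factor CHOP, was the lowest of the 10 genes, with 45 to 119 counts per library. It ranged from 9.23 to 12.0 CPM in untreated VEDS (median 9.80) and from 9.58 to 14.5 CPM in untreated controls (median 11.3). On hydralazine it ranged from 9.49 to 17.1 CPM in VEDS (median 11.6) and from 7.11 to 14.1 CPM in controls (median 10.4). The VEDS median was below the control median untreated and above it on hydralazine, with overlap in each case. The log2 fold change was -0.15 ± 0.12 untreated and 0.26 ± 0.19 on hydralazine, and the interaction of genotype and hydralazine was 0.41 ± 0.22 (edgeR, unadjusted p = 0.0790, adjusted p = 1.00). For the interaction 0 of the 10 genes were called by edgeR or DESeq2 (background 0.0% of 13407 genes), and 0 were at an unadjusted p under 0.05.

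The wider pathways were described by lists of other genes. The list of the ATF6 arm and ER chaperones holds 15 genes. It counts the ATF6 sensors and the proteases that cleave them as well, so its values are not those of ATF6 targets alone. Of all 15 genes, 6 were higher and 9 lower in untreated VEDS than in control aortas (median -0.022). On hydralazine 8 were higher and 7 lower (median 0.020). Of 10 genes of the IRE1 and XBP1 arm, 1 was higher and 9 lower untreated (median -0.029), and 6 were higher and 4 lower on hydralazine (median 0.026). Of 17 measured genes for other steps of collagen modification and folding, 12 were higher untreated (median 0.014) and 5 on hydralazine (median -0.034). In each of these lists edgeR called 0 genes in both comparisons. ER-associated degradation, the disposal route for misfolded chains, had 4 of 10 genes higher untreated and 5 of 10 on hydralazine, with 0 called.

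The list of the PERK arm and integrated stress response had 16 of 20 measured genes higher in VEDS than in control aortas, both untreated (median 0.067) and on hydralazine (median 0.15), beside medians of 0.0034 and -0.0056 over all genes. EdgeR called 0 of them in either comparison, 0 were at an unadjusted p under 0.05 untreated, and 6 were on hydralazine, with all 6 higher. Over all genes the share at an unadjusted p under 0.05 was 3.04% untreated and 4.64% on hydralazine. The list was chosen with earlier results of these data known, so its counts beside these shares are a description and not a test. Markers of other tissues differed in the same comparison on hydralazine. In VEDS 6 of 6 hepatocyte markers were higher (median 0.76), as were 6 of 6 macrophage markers (median 0.28). There 5 of 5 cardiomyocyte markers were lower (median -2.70, all 5 at an unadjusted p under 0.05). The cardiomyocyte markers summed to between 6.66 and 701 CPM in control aortas (median 24.5), against 5.22 to 24.6 CPM in VEDS (median 12.1). Control hydralazine replicate 5 is the library that stood apart in *Myh6* above. The part of all these markers in the list's values was not tested. The smallest p belonged to *Trib3*, a pseudokinase induced by ATF4 and CHOP, at 2.78 to 8.35 CPM in VEDS (median 4.78) and 1.24 to 3.37 CPM in control aortas (median 1.94) on hydralazine. Its levels overlapped slightly, and its log2 fold change was 1.2995 ± 0.32 on hydralazine (edgeR, unadjusted p = 0.00143, adjusted p = 0.923) and 0.39 ± 0.38 untreated. The list also holds amino acid supply genes, which ATF4 drives without ER stress as well.

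The amount of chaperone per client chain was compared as the ratio of *Serpinh1* to the summed TPM of *Col1a1*, *Col1a2* and *Col3a1*. It ran from 0.112 to 0.310 in untreated VEDS (median 0.210) and from 0.104 to 0.280 in untreated control aortas (median 0.197). It ran from 0.128 to 0.262 in VEDS (median 0.202) and from 0.121 to 0.293 in control aortas (median 0.166) on hydralazine. The genotypes overlapped in both settings. The mean log2 difference was 0.058 untreated (exact permutation test, two-sided, p = 0.838) and 0.088 on hydralazine (exact permutation test, p = 0.716), each 0.900 after adjustment over 6 ratio tests. The spread within groups was wide. The SD of the log2 ratio was 0.62 in VEDS and 0.61 in control aortas untreated, and 0.49 and 0.59 on hydralazine. Each group pools mice of day 30 and day 60, and a genotype difference within 1 age was not tested. The client chains also overlapped between genotypes, with log2 fold changes for both treatments together of -0.0050 ± 0.32 for *Col3a1*, -0.046 ± 0.28 for *Col1a2* and -0.24 ± 0.40 for *Col1a1*.

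*Col3a1* varied more over the 30 libraries than any of the 10 genes. Over the 30 libraries the highest level was 4.10 times the lowest for *Col3a1*, against 1.42 times for *Plod2* and 2.80 times for *Hspa5*, the narrowest and the widest of the 10. *Col3a1* fell into 2 separate ranges, from 4316 to 7710 CPM in 18 libraries and from 13568 to 17691 CPM in 12 libraries, with no library between them. Each of the 4 groups of 6 had 3 libraries in the upper and 3 in the lower range, and the 6 HS and HB libraries, all harvested at day 60, were in the lower range. The part that harvest age has in these ranges was not tested, since the labels do not give it for a library. The ranges were defined from the data, so relations were given within each. Over 14 gene pairs in the 2 ranges (28 relations), permutation p-values were adjusted for the 28.

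Among the 18 libraries of the lower range, 4 of the 6 collagen-modifying genes, and *Atf4*, were correlated with *Col3a1* at an adjusted p under 0.05 for r. The correlation of log2 CPM was r = 0.82 for *P4ha2* (rho = 0.80, adjusted permutation p = 0.00056), r = 0.81 for *Serpinh1* (rho = 0.75, adjusted permutation p = 0.00056) and r = 0.75 for *Plod1* (rho = 0.72, adjusted permutation p = 0.00123). Without the 2 libraries farthest from the median of *Col3a1*, r was 0.84, 0.81 and 0.72 for the same genes in that order. *P4ha1* (r = 0.64, rho = 0.57, adjusted permutation p = 0.0168) and *Atf4* (r = 0.58, rho = 0.54, adjusted permutation p = 0.0404) had lower values of r. The rho of *Atf4* missed the threshold (adjusted permutation p = 0.0571). *P4hb* missed the threshold (r = 0.54, rho = 0.58, adjusted permutation p = 0.0532 for r and 0.0425 for rho). *Plod2* (r = 0.43), *Hspa5* (r = 0.34), *Hsp90b1* (r = 0.21) and *Ddit3* (r = -0.073) had adjusted permutation p-values of 0.137 or more. Among the 12 libraries of the upper range this relation was not seen for *Serpinh1* (r = -0.11) and *P4ha2* (r = -0.14), and the 1 relation with *Col3a1* that passed was negative, that of *P4hb* (r = -0.82, rho = -0.83, adjusted permutation p = 0.0052, r = -0.68 without the 2 farthest libraries). *Atf4* was negative there too and did not pass (r = -0.65, rho = -0.59, adjusted permutation p = 0.0545 for r and 0.103 for rho). The upper range has fewer libraries than the lower and none from HS or HB. On the log2 scale used for r, *Col3a1* also spans a narrower range there, whose part in r was not tested. Group means were not subtracted, and r was not compared between the ranges by a test for any pair. The libraries share 1 scaling, and liver transcripts varied across them (group-centred r of the liver score with *P4hb* 0.70, as a description), whose part in these relations was not tested.

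*Hspa5* and *Hsp90b1* varied together in both ranges. Their correlation was r = 0.89 in the lower range (rho = 0.78, adjusted permutation p = 0.00028, r = 0.78 without the 2 farthest libraries) and r = 0.83 in the upper range (rho = 0.80, adjusted permutation p = 0.00448, r = 0.72 without them). *Ddit3* and *Atf4* had r = 0.53 in the lower range (adjusted permutation p = 0.0545, rho = 0.48, adjusted 0.103) and r = 0.55 in the upper range (adjusted permutation p = 0.122), where rho was 0.69 and passed the threshold (adjusted permutation p = 0.0477). *P4ha1* and *P4ha2* were correlated in the lower range (r = 0.82, rho = 0.69, adjusted permutation p = 0.00056) and not in the upper range (r = -0.11), and *Plod1* and *Plod2* in neither (r = 0.36 and 0.10).

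**Figure D3:**
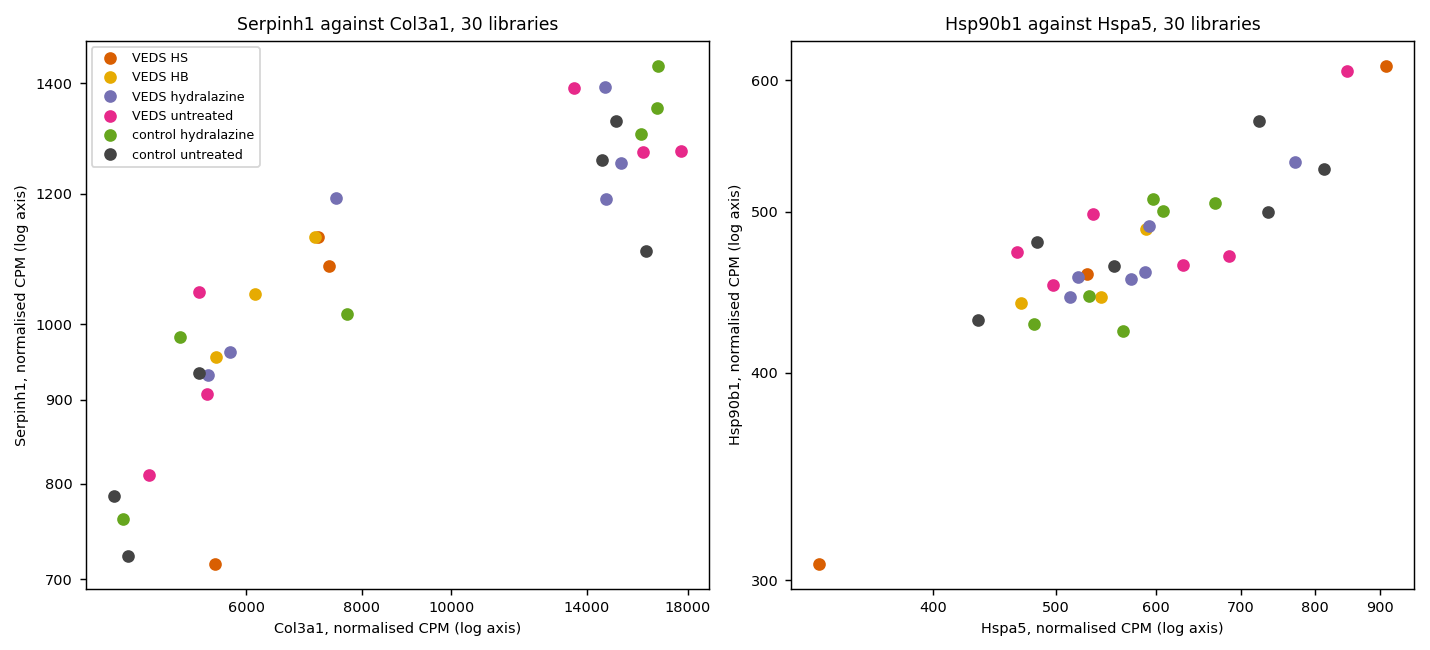
Normalised CPM of *Serpinh1* against *Col3a1* and of *Hsp90b1* against *Hspa5* in 30 libraries, all axes on a log scale, with 1 point per library coloured by group. *Col3a1* leaves a gap between 7710 and 13568 CPM, and HS replicate 3 is the lowest library for *Serpinh1* (715 CPM), *Hspa5* (326 CPM) and *Hsp90b1* (307 CPM).

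**Figure D4:**
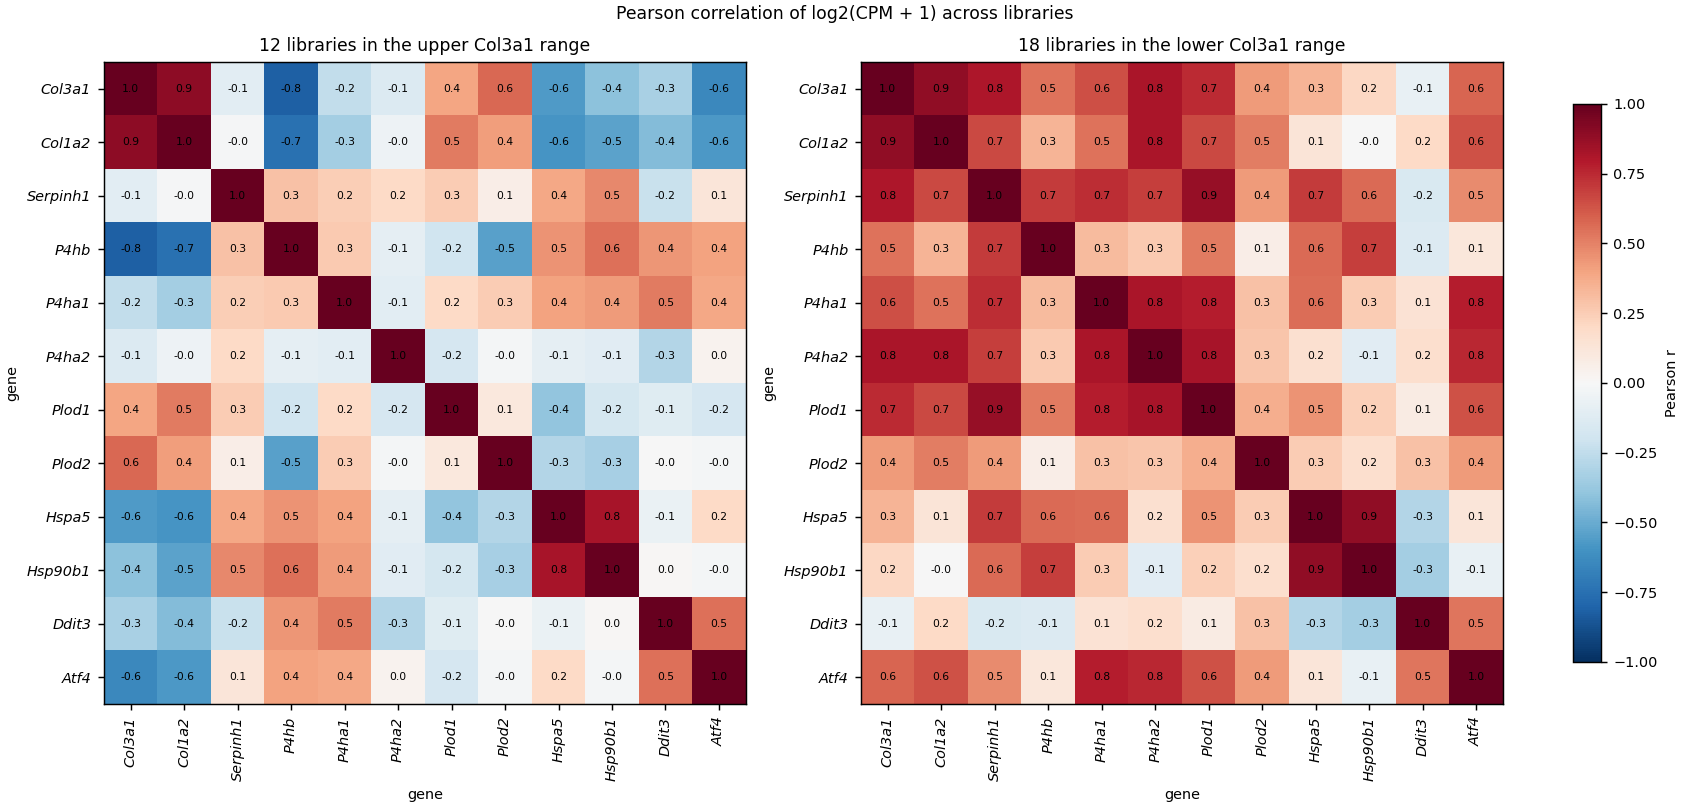
Pearson correlation of log2(CPM + 1) between the 10 genes, *Col3a1* and *Col1a2* (both axes) among the 12 libraries of the upper and the 18 of the lower *Col3a1* range, with the colour and the printed value giving r. The pair *Hspa5* and *Hsp90b1* stays high in both panels (0.83 and 0.89), whereas *Serpinh1* and *Col3a1* have r = 0.81 in the lower range and r = -0.11 in the upper. No test compared r between the panels, and *Col3a1* spans a narrower range on the log2 scale in the upper.

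The genes most like each of 3 members were taken from 11131 genes with a mean of at least 5 CPM, by the Pearson correlation of log2(CPM + 1) over 30 libraries after subtracting the group means. For *Hspa5* these were *Pdia6* (0.92), *Creld2* (0.92), *Manf* (0.89), *Hyou1* (0.88) and *Hsp90b1* (0.88). All are genes for ER proteins, and within the lower and upper *Col3a1* ranges their correlations with *Hspa5* were between 0.79 and 0.94. For *Serpinh1* they were *Ckap4*, *Hdlbp*, *Aldh18a1*, *Gpr153* and *Rian* (0.92 to 0.95). Their correlations with *Serpinh1* were between 0.76 and 0.93 in the lower range and between 0.091 and 0.61 in the upper range. *Ddit3* had weaker partners, led by *Cnnm4* (0.72) and the heat shock co-chaperone *Dnajb1* (0.70).

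Since *Hspa5* and *Hsp90b1* varied together, the promoters of the 10 genes were read for known response elements. RefSeq promoter sequence on GRCm38.p6, from 250 bases before to 50 bases after the start site, was found for 9 of the 10, and *Plod2* had none in the table used here. The ER stress element, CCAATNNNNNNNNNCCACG on either strand, was present in *Hspa5* (1 match) and *Hsp90b1* (2 matches) and in none of the other 7. Over all 27025 promoters of the same length it was present in 35, or 0.13%. The element was looked for as a known one, so these counts are a description and no test was made on them. The 250 bases before the start site of these genes are shown with the fixed bases of the element in capitals, at chr2:34771840-34772089 on the plus strand for *Hspa5* and chr10:86705445-86705694 on the minus strand for *Hsp90b1*, each read along its gene.
Hspa5: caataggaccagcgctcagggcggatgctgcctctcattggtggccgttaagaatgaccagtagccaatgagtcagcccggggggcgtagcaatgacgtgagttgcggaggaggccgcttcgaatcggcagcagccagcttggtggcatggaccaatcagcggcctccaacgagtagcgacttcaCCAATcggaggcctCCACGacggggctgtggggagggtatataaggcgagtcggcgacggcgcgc
Hsp90b1: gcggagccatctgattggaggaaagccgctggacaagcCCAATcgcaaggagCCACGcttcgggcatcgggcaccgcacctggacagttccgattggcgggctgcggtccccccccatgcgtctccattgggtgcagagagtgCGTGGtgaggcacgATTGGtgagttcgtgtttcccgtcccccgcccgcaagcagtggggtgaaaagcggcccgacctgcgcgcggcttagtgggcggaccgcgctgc
The match in *Hspa5* began 65 bases before the start site. In *Hsp90b1* 1 match began 212 bases before the start site, and the other, which is on the opposite strand and so reads CGTGG first, began 107 bases before it. Of the 5 genes most like *Hspa5*, 3 had a promoter in the table (*Pdia6*, *Creld2* and *Hsp90b1*) and all 3 held the element, against 0 of 5 for those most like *Serpinh1* and 0 of 5 for those most like *Ddit3*. Of the 12 matched genes in the list of the ATF6 arm and ER chaperones, 5 held it, and 0 of 20 did in the PERK and integrated stress response list. *Pdia6* and *Creld2* are in both of these counts and *Hsp90b1* is itself 1 of the 10 genes, so the counts are not independent.

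The other elements were more common among all promoters. The hypoxia core ACGTG was in 6 of the 9 promoters (*Serpinh1*, *P4hb*, *P4ha1*, *P4ha2*, *Hspa5* and *Ddit3*), and in 19.7% of all promoters. The heat shock element GAANNTTC, which reads the same on both strands, was in 1 of the 9 (*Plod1*) and in 7.95% of all promoters. The amino acid response core TGATGNAA was in 0 of the 9 and in 4.06% of all promoters. A match describes the letters in the window and does not show that a factor binds there.

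Hydralazine alone left the group without a call. In VEDS aortas on hydralazine against untreated VEDS, edgeR and DESeq2 called 0 of 10 genes (background 0.0% of 13006 genes), and 0 were at an unadjusted p under 0.05. In control aortas on hydralazine against untreated controls both again called 0 (background 0.0% of 12951 genes), although DESeq2 gave *Ddit3* no adjusted p and so judged 9 of the 10, and 0 had an unadjusted p under 0.05. The smallest p in VEDS was that of *Ddit3* (0.29 ± 0.16, 95% interval -0.049 to 0.63), and in control aortas that of *Plod2* (0.15 ± 0.078, 95% interval -0.015 to 0.32). The libraries on hydralazine overlapped with the untreated ones for all 10 genes in both genotypes (background of non-overlap 0.192% in VEDS and 0.355% in controls).

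HB was compared with untreated VEDS aortas, and 0 of 10 genes were called by edgeR or DESeq2. The background was 0.409% of 13204 genes by edgeR (0.212% higher and 0.197% lower) and 564 genes by DESeq2. The 1 gene of 10 at an unadjusted p under 0.05 was *Ddit3*, beside 16.4% of all genes. Its levels were 15.7, 12.8 and 12.1 CPM in HB aortas, against 9.23 to 12.0 CPM in untreated VEDS aortas (median 9.80). All 3 HB libraries lay above all 6 untreated VEDS libraries, by a narrow margin for the lowest (background of non-overlap 8.67%). The log2 fold change was 0.38 ± 0.13 (95% interval 0.086 to 0.68, edgeR, unadjusted p = 0.0165, adjusted p = 0.190), and the range when single libraries were left out was 0.27 to 0.46. In the same libraries the heat-inducible chaperones *Hspa1b* (2.18 ± 0.13, adjusted p = 1.12e-04) and *Hspa1a* (2.06 ± 0.16, adjusted p = 9.19e-04), near-identical genes whose reads are not fully separable, were the 2 called genes among the lists of cytosolic heat shock, ER stress and hypoxia genes. HB includes hydralazine, which alone against untreated VEDS gave 0.90 ± 0.30 for *Hspa1b* and 0.86 ± 0.26 for *Hspa1a* (edgeR, unadjusted p = 0.0100 and 0.00617, neither called). Untreated VEDS aortas were themselves low in these transcripts, with 41.8 ± 5.46 CPM of *Hspa1b* against 81.3 ± 37.2 CPM in untreated control aortas (SD, n = 6 each, log2 fold change -0.96 ± 0.24, edgeR, unadjusted p = 0.00171, adjusted p = 1.00) and 7 of 9 genes of the heat shock list lower. Against VEDS aortas on hydralazine, *Ddit3* in HB was 0.098 ± 0.21 and its libraries overlapped. There *P4hb* had the smallest p, at 633, 601 and 558 CPM in HB aortas against 608 to 802 CPM in VEDS aortas on hydralazine (median 704). Its log2 fold change was -0.25 ± 0.11 (unadjusted p = 0.0436, adjusted p = 0.308, edgeR). Over all genes 15.5% had an unadjusted p under 0.05 in this comparison. Of the 10 genes 0 were called by edgeR (background 0.0151% of 13266 genes) or by DESeq2 (575 genes called). The libraries of HB and of VEDS on hydralazine overlapped for all 10 genes (background of non-overlap 8.25%).

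HS gave 0 calls among the 10 genes by edgeR or DESeq2, against untreated VEDS and against VEDS on hydralazine. Against untreated VEDS the background was 0.309% of 13276 genes by edgeR (0.0527% higher and 0.256% lower) and 295 genes by DESeq2. There 0 of the 10 had an unadjusted p under 0.05, beside 11.1% of all genes. Against VEDS on hydralazine the background was 0.0% of 13304 genes by edgeR and 54 genes by DESeq2. *Hspa5* was at 911, 529 and 326 CPM in the 3 HS libraries, against 466 to 848 CPM in untreated VEDS aortas (median 583), and *Hsp90b1* was at 612, 458 and 307 CPM, against 452 to 608 CPM (median 472). HS libraries held the highest and the lowest value of both genes in the whole set, so 3 libraries gave no common direction. The log2 fold changes against untreated VEDS were -0.062 ± 0.29 for *Hspa5* and -0.12 ± 0.19 for *Hsp90b1*, and without HS replicate 3 they were 0.24 and 0.12. *Plod1* had the smallest p against VEDS aortas on hydralazine, at 57.3, 57.3 and 47.8 CPM in HS aortas and 57.0 to 71.1 CPM in VEDS aortas on hydralazine (median 62.3). Its log2 fold change was -0.23 ± 0.099 (unadjusted p = 0.0397, adjusted p = 0.351, edgeR). It was the 1 gene of 10 at an unadjusted p under 0.05, beside 13.6% of all genes. HS was not apart from untreated VEDS or from VEDS on hydralazine without overlap for any of the 10 genes (background of non-overlap 5.46% and 5.77%).

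The antagonists were also compared with each other at the same age and on the same hydralazine dose, though at different doses of their own and with 3 libraries per group. Of 10 genes 0 were called by edgeR (background 0.0% of 12800 genes), DESeq2 called 0 of the 9 to which it gave an adjusted p (*Ddit3* had none), 0 were at an unadjusted p under 0.05, and 0 did not overlap (background of non-overlap 13.6%). The differences of HS from HB ran from -0.17 ± 0.19 for *Ddit3* to 0.15 ± 0.32 for *Hspa5*, and the widest 95% interval, for *Hspa5*, was -0.59 to 0.89. Without HS replicate 1 the value of *Hspa5* was -0.32 and that of *Hsp90b1* -0.26, and without HS replicate 3 that of *Serpinh1* was 0.097 in place of -0.087.

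**Figure D5:**
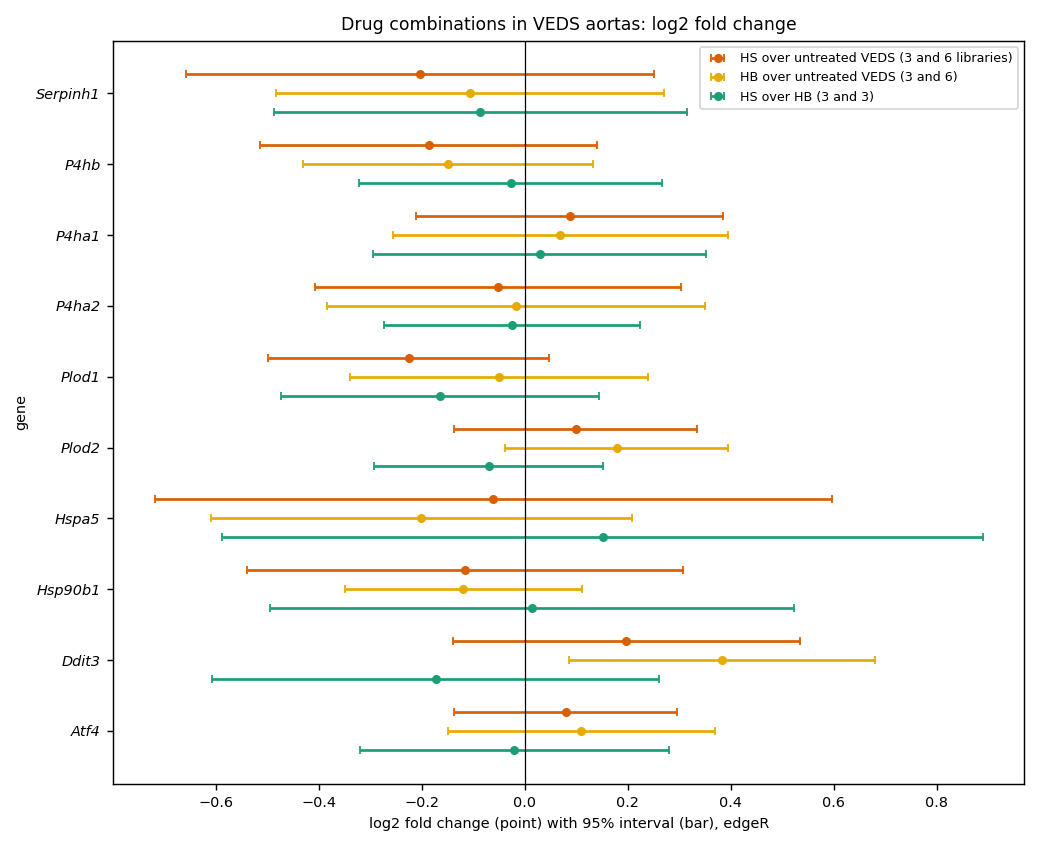
The log2 fold change (horizontal axis) of HS and HB over untreated VEDS aortas and of HS over HB for the 10 genes (vertical axis), as edgeR estimates with 95% intervals. The interval of *Ddit3* in HB (0.086 to 0.68) is the 1 that leaves out 0.

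Liver and fat transcripts also differed between some of these groups. The 6 adipocyte markers summed to between 239 and 749 CPM in HS and between 188 and 595 CPM in HB aortas, against 234 to 1029 CPM in VEDS aortas on hydralazine and 651 to 1724 CPM in untreated VEDS aortas. The 6 hepatocyte markers summed to between 170 and 1815 CPM in HS and between 641 and 865 CPM in HB aortas, against 1886 to 11927 CPM in VEDS aortas on hydralazine and 92.3 to 15058 CPM in untreated VEDS aortas. Hepatocyte markers in HS and HB thus lay below VEDS on hydralazine and within the range of untreated VEDS, and adipocyte markers overlapped with VEDS on hydralazine. Each of these markers had a count in every group, and their part in the results was not tested beyond the covariates given next. With liver and adipose scores as covariates *Serpinh1* stood at 0.23 in HB and 0.18 in HS against VEDS on hydralazine, in place of -0.16 and -0.24, and 0 of 10 genes were called in either comparison. In a fit with the summed type I collagen level as a covariate, chosen after the data were seen, *Serpinh1* in VEDS against control aortas for both treatments together was 0.095 ± 0.057, *Plod1* was 0.16 ± 0.056 and *Hspa5* was 0.011 ± 0.11, and 0 of 10 genes were called (edgeR, smallest adjusted p = 0.584, for *Plod1*). The SE of *Serpinh1* in this fit was 0.057, against 0.12 without the covariate.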

How the data were processed

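Total RNA from descending thoracic aortas was sequenced as stranded libraries (TruSeq Stranded Total RNA, NovaSeq 6000). The authors converted base calls with CASAVA 1.8.4, aligned reads with STAR to mm39 and estimated expression per RefSeq gene with RSEM. The deposited tables hold expected counts, estimated by the authors with RSEM and not normalized, and TPM, which the authors' RSEM run scaled to length and depth. Of the counts, 97.6% were whole numbers within 1e-06.

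Expected counts were rounded and tested with edgeR 4.0.16 in R 4.3.3 (TMM, filterByExpr by group, quasi-likelihood F-test, Benjamini-Hochberg over all genes tested, with an adjusted p up to 0.05 taken as a call), on the libraries of each comparison only. Background shares of called genes are those of edgeR. CPM are TMM-scaled over all 30 libraries, and correlations used log2(CPM + 1). Between-genotype ratios used exact permutation tests over 924 arrangements, whose smallest possible p is 0.00216, and correlations 100000 permutations, whose smallest p is 1e-05. Replicates were separate libraries, and p-values measure the spread between them. Nothing in the labels gives the age or batch of a library.

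The 10 genes and the gene lists were chosen with earlier results of these data known. All 10 were named in every comparison. Of the other lists, the called genes (up to 4 per direction) or the 1 gene of smallest p could be named, with *Col1a1*, *Col1a2* and *Col3a1* as clients and the 5 genes most like *Serpinh1*, *Hspa5* and *Ddit3*. Alternatives were DESeq2 1.42.0, its size factors, other filters, 1 fit of all libraries, 1 surrogate variable (sva 3.50.0), liver and adipose scores as covariates, leaving out libraries, and a type I collagen covariate added after the data were seen. The fits were tested on simulated data. Promoter matches came from RefSeq sequence on GRCm38.p6, used for sequence only.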

Additional observations from a re-analysis of the deposited data

Results flagged for a closer look

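Of 40 sets of 6 libraries (10 genes in 4 groups), 2 held a library far from the other 5, where chance gives about 1 in 20. *Hspa5* was highest in VEDS hydralazine replicate 1, at 772.407 CPM against 513 to 592 CPM in the other 5 libraries of the group, a gap of 0.65 of the group's range on the log2 scale. *Hsp90b1* was highest in VEDS untreated replicate 4, at 607.659 CPM against 452 to 498 CPM in the other 5, a gap of 0.669 of the group's range on the log2 scale. No difference between treatments in the effect of genotype was called for any of the 10 genes by edgeR.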

How the results depend on the processing

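The count of the 10 genes called was 0 in all 243 counts computed (DESeq2 gave *Ddit3* no adjusted p in 2 comparisons), over the 11 comparisons and every alternative run, and the smallest adjusted p of any of them was 0.0758, for *P4hb* in HB against VEDS on hydralazine with type I collagen as a covariate. Of 940 fold changes under alternatives that kept the libraries or left out 3 of them, 75 changed sign and 37 of these also moved by at least the standard error, which is how a reversal was counted. Of 1380 with 1 library left out, 148 changed sign and 8 reversed. The cause of each reversal was not tested.

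With liver and adipose covariates, HB against VEDS on hydralazine gave 0.23 for *Serpinh1*, 0.16 for *P4hb*, 0.43 for *P4ha2*, 0.21 for *Plod1* and -0.049 for *Plod2*. HS against VEDS on hydralazine gave 0.18 for *Serpinh1*, 0.11 for *P4hb*, 0.066 for *P4ha2*, 0.0028 for *Plod1* and 0.20 for *Hsp90b1*. Against untreated VEDS, HS gave 0.075 for *Serpinh1*, 0.35 for *Hspa5* and 0.17 for *Hsp90b1*, and HB gave 0.069 for *Serpinh1* and 0.19 for *P4ha2*. Untreated VEDS against control gave -0.098 for *P4ha1* and -0.10 for *P4ha2*, hydralazine in controls gave -0.21 for *P4ha1* and -0.062 for *Atf4*, and the interaction gave 0.13 for *Serpinh1*, 0.28 for *P4ha1* and 0.25 for *P4ha2*.

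With 1 surrogate variable, HB against VEDS on hydralazine gave 0.094 for *Serpinh1*, 0.012 for *P4hb*, 0.28 for *P4ha2* and 0.076 for *Plod1*, and HS gave 0.10 for *Serpinh1*, 0.028 for *P4hb*, 0.10 for *P4ha2* and 0.16 for *Hsp90b1*. *P4hb* was 0.098 for hydralazine in controls and -0.068 for the interaction. Without the 3 libraries that stand apart, HS gave 0.24 for *Hspa5* and 0.12 for *Hsp90b1* against untreated VEDS, 0.28 and 0.18 against VEDS on hydralazine, and *Serpinh1* was 0.097 against HB. Leaving out HS replicate 3 alone gave those same values to the printed digits. Over all single libraries left out, *Hspa5* in HS ran from -0.52 to 0.24 against untreated VEDS, from -0.48 to 0.28 against VEDS on hydralazine and from -0.32 to 0.44 against HB, and *Hsp90b1* from -0.38 to 0.12, from -0.31 to 0.18 and from -0.26 to 0.24, with HS replicate 1 and HS replicate 3 giving the ends. *Serpinh1* in HS against HB ran from -0.21 to 0.097, and *Plod1* in HB against VEDS on hydralazine from -0.14 to 0.048, the last without HB replicate 3.

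With 1 library left out, the log2 ratio of *Serpinh1* to fibrillar collagen ran from -0.11 to 0.22 untreated and from -0.020 to 0.23 on hydralazine, *P4ha1* to *P4ha2* from -0.12 to 0.037 and from -0.10 to 0.098, and *Plod2* to *Plod1* from -0.42 to -0.28 untreated, where it passed the threshold only without control untreated replicate 6. Over all genes, edgeR called 54 in HB against untreated VEDS, against 564 by DESeq2, 213 with a surrogate variable, 110 with the collagen covariate, 27 with the liver and adipose covariates and 2 without the 3 libraries. It called 41 in HS against untreated VEDS, against 295 by DESeq2, 141 in 1 fit of all libraries, 72 with a surrogate variable, 24 with the liver and adipose covariates and 1 without the 3 libraries. Against VEDS on hydralazine it called 2 in HB, against 651 with the collagen covariate, 575 by DESeq2, 93 with the liver and adipose covariates and 25 with a surrogate variable, and 0 in HS, against 54 by DESeq2, 12 with the liver and adipose covariates, 8 with the collagen covariate and 7 with a surrogate variable. With 1 library left out, the calls ran from 2 (without HB replicate 1 or 2) to 529 (without VEDS untreated replicate 1) in HB and from 0 (without HS replicate 2, VEDS untreated replicate 2 or 5) to 104 (without VEDS untreated replicate 1) in HS against untreated VEDS, and from 1 (without HB replicate 1 or 2) to 56 (without VEDS hydralazine replicate 4) in HB against VEDS on hydralazine, with 36 without VEDS hydralazine replicate 6. In each of the other single-library fits against untreated VEDS the calls were 9 to 24 in HB and 1 to 13 in HS. DESeq2 called 35 genes in HS against HB, where edgeR called 0. No paired analysis was possible because the labels carry no replicate numbers shared between groups. With 45 to 119 counts per library *Ddit3* had the fewest of the 10, and 3 libraries per group limited the HS and HB comparisons.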
